A study of Homo sapiens with 6 samples.

Results

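Homologous recombination repairs a broken chromosome from an intact sister copy, and the Fanconi pathway unhooks strands that have been cross-linked and hands the resulting break to the same machinery. In outline, kinases sense the break, the chromatin around it is marked, the ends are cut back to single strands, BRCA2 and its partners prepare them for strand exchange, and joined molecules are then separated. Many of these genes are best known as tumour suppressors of breast and ovary, and many of their messages are made mainly around DNA replication. The 44 genes described here are members of these steps, chosen by symbol out of 41471 gene symbols counted in a knockdown experiment and 34157 in a drug experiment. All 44 were found in both and all 44 passed the filter on low counts, a mean of at least 1 CPM (counts scaled to a fixed library size) over the experiment.

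MDA-MB-231, a human line from a triple-negative breast cancer, was the only cell used. In the knockdown experiment the cells stably carried a lentiviral scramble shRNA, CDK16-sh1 or CDK16-sh2, the last pair being hairpins against the kinase gene CDK16. In the other experiment the cells were exposed for 48 h to vehicle (DMSO) or to rebastinib (Reb), a kinase inhibitor, at 1 μM or 5 μM. Each of the 6 conditions had 1 library, so no difference in a single condition has a replicate check, and the intervals given below (95%, Clopper-Pearson) cover counting error only.

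Total counts ran from 25838443 in the scramble library to 50303269 with DMSO. CDK16 itself had 3223, 1360 and 846 counts under the scramble, CDK16-sh1 and CDK16-sh2 hairpins, which is -1.52 and -1.82 on the log2 scale. Of the markers of this line, vimentin (VIM) was abundant at 177 to 833 RPKM (reads scaled by exon length and library size), whereas the oestrogen receptor ESR1 had at most 12 counts, the progesterone receptor PGR at most 16 and the keratin KRT20 at most 1. The leukocyte gene PTPRC had at most 35 counts and E-cadherin (CDH1) at most 53, both in the 1 μM library, and the luminal factor FOXA1 1 to 31. Other markers of cell types unlike this line were counted at higher levels, with 125 to 408 counts for EPCAM (epithelial), 46 to 401 for ERBB3 and 73 to 390 for GATA3 (luminal) and 4 to 154 for PECAM1 (endothelial). At 5 μM the markers did not move one way. Of those that mark this line, CAV1, AXL and VIM stood at -2.07, -0.41 and -0.30 on the log2 scale. CD44 and MSN, which also mark it, stood at 1.06 and 0.66. Of the markers of other cell types, EPCAM stood at 1.86, while ERBB3, GATA3 and PECAM1 stood at -1.37, -0.81 and -3.82. Mitochondrial genes took 7.19% of the counts with DMSO and 16.42% at 5 μM, and 11.26%, 10.42% and 16.24% in scramble, CDK16-sh1 and CDK16-sh2. The part of these markers and of the mitochondrial share in the results below was not tested.

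Levels in each library are given as CPM after TMM scaling, the scale on which the log2 fold changes were taken, and a gene is said to have fallen or risen where it was at least 2-fold from its own control library. Per unit of exon length, the members ranged in DMSO from FANCF at 0.317 RPKM to H2AFX at 70.2 RPKM, with a median of 4.86. The median RPKM was 3.89 in scramble, 3.66 in CDK16-sh1, 3.14 in CDK16-sh2, 4.69 at 1 μM and 0.835 at 5 μM. At 5 μM 24 of the 44 members were under 1 RPKM, against 5 with DMSO. RPKM is scaled to library totals, and on that scale all genes tested were also lower at 5 μM. Their median log2 fold change was -0.71 by RPKM, beside -0.07 under TMM. The share of all genes under 1 RPKM was not counted. The lowest count of any member was 14 (RMI2 at 5 μM), so none was at or under the floor of 3 counts.

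At 5 μM Reb 29 of the 44 members fell and 4 rose, where 27.2% of the 15655 genes tested fell and 23.6% rose. Their median log2 fold change was -1.19, beside -0.07 for all genes tested, with 37 members below 0 and 7 above, beside 51.7% and 48.3% of all genes. At 1 μM no member fell or rose, where 1.92% of genes fell and 1.28% rose. The median there was 0.12, with 28 members above 0 and 16 below, beside 50.2% and 49.8% of all genes. With linear trends on GC content and length removed, the member median at 1 μM was 0.01. In the CDK16-sh1 library 6 members fell and none rose (6.86% and 4.33% of the 15295 genes tested). In the CDK16-sh2 library 6 fell and 1 rose (7.62% and 2.2%). The medians were -0.28 and -0.27. With CDK16-sh1 34 members lay below 0 and 10 above (50.1% and 49.9% of all genes), and with CDK16-sh2 27 and 17 (48.6% and 51.4%). These shares of members are counts over a list and carry no test.

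**Figure D1:**
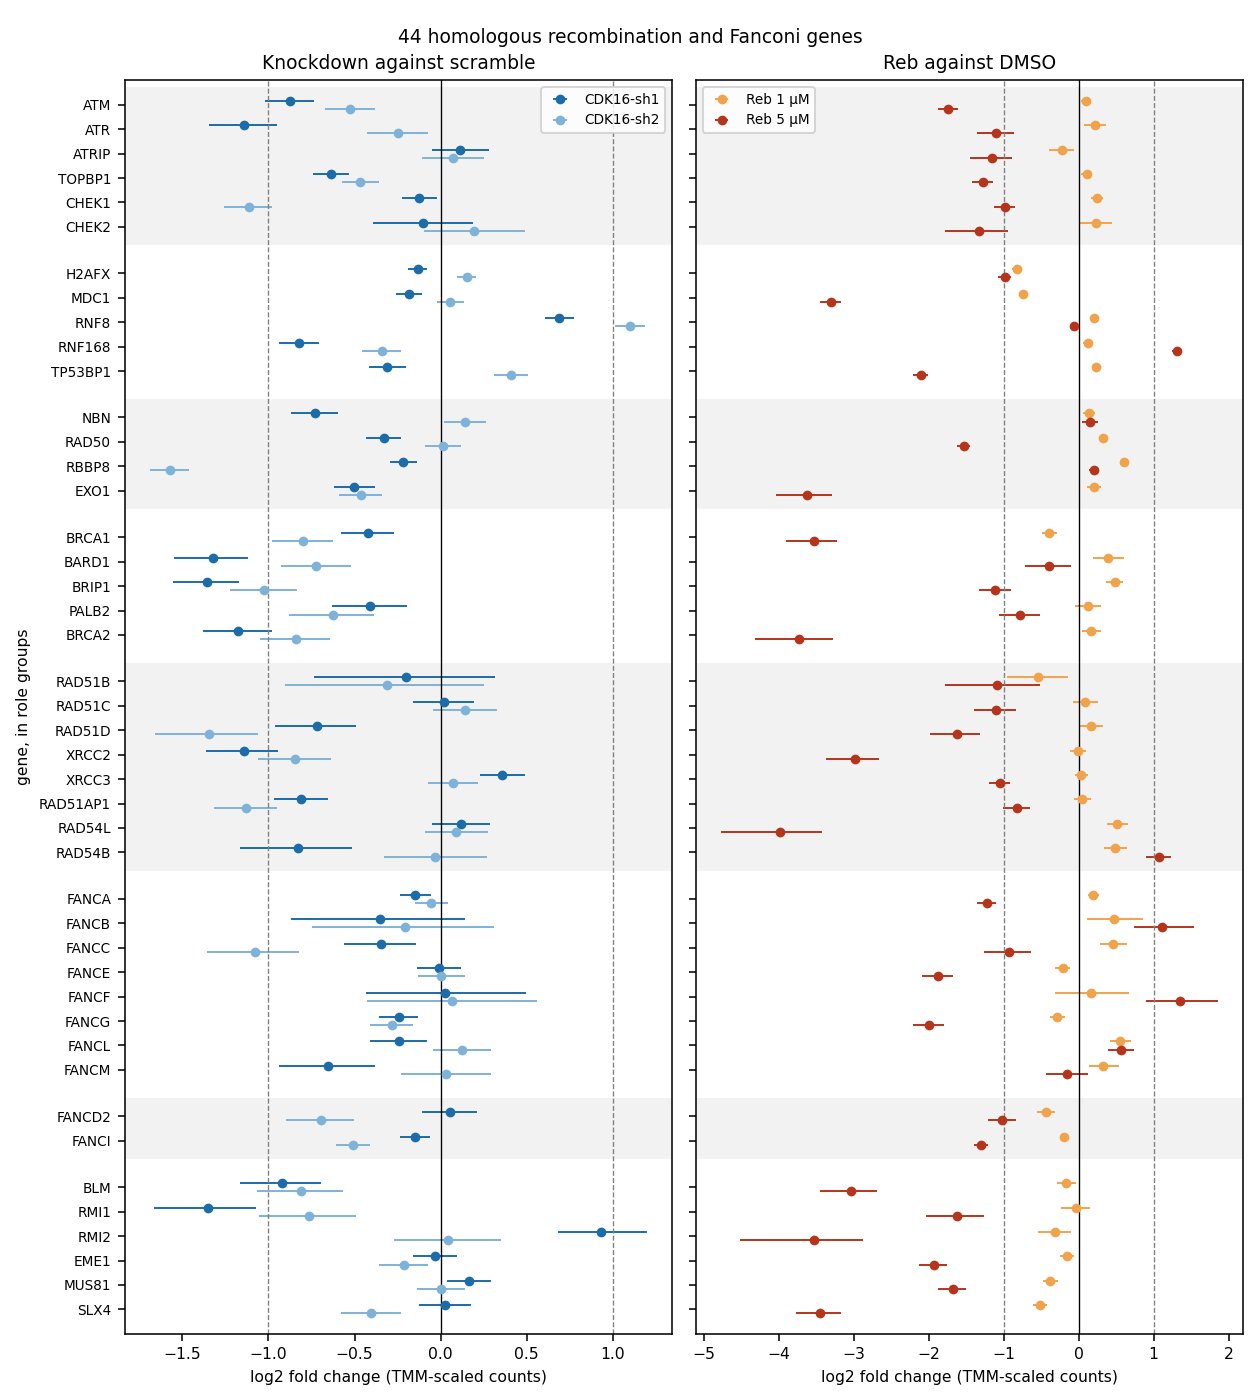
Log2 fold change of each of the 44 members against its own control library (x axis), with genes in their 8 role groups on the y axis; points are single libraries, bars are 95% intervals for counting error, and dashed lines mark 2-fold. At 5 μM Reb 29 points lie beyond the lower line and 4 beyond the upper, while all 44 points at 1 μM lie between the lines.

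Among the damage kinases and their partners, 5 of 6 fell at 5 μM. ATM, the kinase that answers double-strand breaks (chromosome 11, 108222484 to 108369102 on GRCh38), had 59.9 CPM with DMSO, 64.1 at 1 μM and 17.9 at 5 μM, and 37.2, 20.3 and 25.8 CPM in scramble, CDK16-sh1 and CDK16-sh2. Only the 5 μM library was 2-fold from its control, with a log2 fold change of -1.74 (interval -1.88 to -1.61). ATR, the kinase of stalled replication, had 12.8, 14.9 and 5.95 CPM over the Reb series and 21.9, 9.91 and 18.5 CPM over the knockdown series. It therefore fell at 5 μM, by 1.10 on the log2 scale, and with CDK16-sh1, by 1.14, but stood at -0.25 with CDK16-sh2. The exons of ATR overlap RP11-383G6.4 on the other strand over 16.4% of their bases.

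TOPBP1, which switches ATR on and had the highest mean RPKM of this group, read 47.4, 51.0 and 19.4 CPM with DMSO, 1 μM and 5 μM. In scramble, CDK16-sh1 and CDK16-sh2 it read 63.7, 41.0 and 46.1 CPM, so that it fell at 5 μM alone (log2 fold change -1.28). CHEK1, the kinase below ATR, had 40.6, 48.0 and 20.4 CPM over the Reb series and 53.5, 49.1 and 24.6 CPM over the knockdown series. CHEK1 fell with CDK16-sh2 (-1.12, interval -1.26 to -0.98) and not with CDK16-sh1 (-0.12), and the 5 μM value of -0.99 was just inside 2-fold. ATRIP, the partner of ATR, and CHEK2, the kinase below ATM, fell at 5 μM only, with log2 fold changes of -1.16 and -1.34. ATRIP shares 33.8% of its exon bases with TREX1 on the same strand, so reads of the latter may be counted on it.

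The chromatin group did not move as one at 5 μM. MDC1, the scaffold that binds phosphorylated H2AX (chromosome 6, 30699807 to 30717889), went from 154 CPM with DMSO to 91.8 at 1 μM and 15.5 at 5 μM, and had 98.2, 86.5 and 102 CPM in scramble, CDK16-sh1 and CDK16-sh2. Its log2 fold changes were -0.75 at 1 μM and -3.31 at 5 μM (interval -3.46 to -3.17), and -0.18 and 0.06 with the hairpins. TP53BP1, the reader of the ubiquitin mark that limits end resection, had 130, 153 and 30.1 CPM over the Reb series and 53.0, 42.8 and 70.4 CPM over the knockdown series. It fell at 5 μM by 2.11 on the log2 scale, and 28.7% of its exon bases lie opposite TUBGCP4 exons.

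H2AFX, which codes for the histone H2AX and was the most abundant member per length in every library, had 97.7 CPM with DMSO, 55.2 at 1 μM and 49.3 at 5 μM. With scramble, CDK16-sh1 and CDK16-sh2 it had 185, 169 and 205 CPM. Its log2 fold changes of -0.82 and -0.99 with Reb were both inside 2-fold. In contrast, the ubiquitin ligase gene RNF168 rose at 5 μM, with 63.9, 69.4 and 158 CPM over the Reb series, a log2 fold change of 1.31 (interval 1.25 to 1.37). RNF8, the ligase that acts before RNF168, had 134, 154 and 128 CPM over the same series. RNF8 was the only member that rose in a hairpin library. It had 60.6 CPM in scramble, 97.8 with CDK16-sh1 (log2 fold change 0.69) and 130 with CDK16-sh2 (1.10).

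Of the 4 genes that sense and resect ends, 2 fell at 5 μM. EXO1, the long-range resection nuclease (chromosome 1, 241847967 to 241895148), had 29.3 CPM with DMSO, 33.9 at 1 μM and 2.33 at 5 μM, 63 counts in the last. It fell 12.4-fold (log2 fold change -3.63, interval -4.04 to -3.29), while its 46.0, 32.5 and 33.3 CPM in scramble, CDK16-sh1 and CDK16-sh2 stayed inside 2-fold. RBBP8, which codes for CtIP, the factor that starts resection, had 98.5, 150 and 113 CPM over the Reb series and did not fall there. In scramble, CDK16-sh1 and CDK16-sh2 RBBP8 had 95.2, 81.9 and 32.0 CPM, so that it fell with CDK16-sh2 alone (-1.57, interval -1.69 to -1.46).

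In the MRE11 complex, RAD50, its ATPase, fell at 5 μM from 124 to 42.6 CPM, a log2 fold change of -1.54, and MRE11A, its nuclease and not one of the 44, fell from 4855 to 737 counts (-1.61). By contrast NBN, its adaptor, had 36.6 CPM with DMSO and 40.7 at 5 μM, a log2 fold change of 0.15 (interval 0.05 to 0.26). The interval of NBN lies apart from those of both. NBN and MRE11A were chosen for this comparison after their values were seen.

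All 5 genes of the BRCA group were below their control at 5 μM, but by very different amounts. BRCA2, which prepares single strands for strand exchange (chromosome 13, 32315474 to 32400266), had 17.2 CPM with DMSO, 19.4 at 1 μM and 1.26 at 5 μM, or 1006, 1150 and 34 counts. BRCA1, the ligase that steers repair towards recombination (chromosome 17, 43044295 to 43170245), had 33.9, 25.9 and 2.88 CPM, or 1980, 1535 and 78 counts. They fell 13.3-fold (log2 fold change -3.74, interval -4.32 to -3.29) and 11.6-fold (-3.54, interval -3.90 to -3.23).

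BARD1, the obligate partner of BRCA1, had 5.97, 7.84 and 4.51 CPM over the Reb series and a log2 fold change of -0.40 at 5 μM (interval -0.71 to -0.10). PALB2, the bridge between BRCA1 and BRCA2, had 9.04, 9.82 and 5.25 CPM and -0.78 (interval -1.06 to -0.51). Neither reached 2-fold, and both intervals lie apart from those of BRCA1 and BRCA2. BRIP1, the helicase that binds BRCA1, had 18.6, 25.9 and 8.58 CPM and fell by 1.11.

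With the hairpins this was the group with the lowest medians, -1.18 for CDK16-sh1 and -0.80 for CDK16-sh2. BRIP1 had 25.5, 9.91 and 12.5 CPM over the knockdown series, and its log2 fold changes of -1.36 and -1.02 made it the only member to fall with each hairpin under TMM. Under library totals BRCA2 (-1.20 and -1.04) and XRCC2 (-1.17 and -1.04) also passed 2-fold with both, under deposited RPKM XRCC2 did, and with trends on GC content and length removed no member did. BRCA2 had 21.9, 9.64 and 12.2 CPM (-1.17 and -0.84) and BRCA1 27.6, 20.6 and 15.8 CPM (-0.42 and -0.80). BARD1 fell with CDK16-sh1, from 20.5 to 8.13 CPM, a log2 fold change of -1.32, and stood at -0.72 with CDK16-sh2. Both hairpin values of a gene are taken against the same scramble library.

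**Figure D2:**
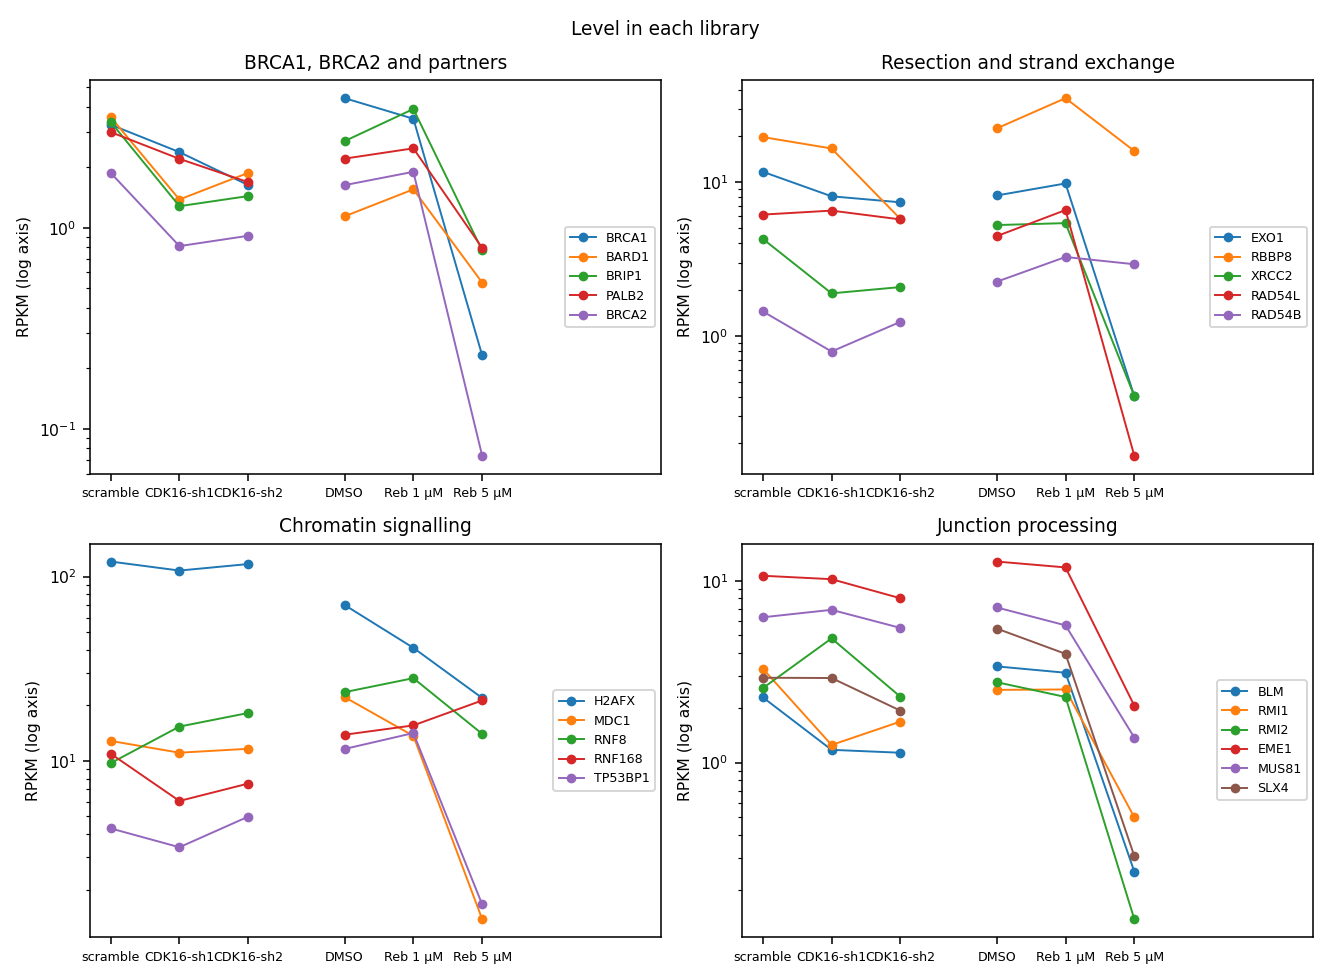
RPKM on a log axis in each library (x axis) for members of 4 groups, each point 1 library and lines joining the libraries of an experiment. Between DMSO and 5 μM Reb BRCA1 and BRCA2 drop well below BARD1 and PALB2, EXO1 and RAD54L drop while RAD54B does not, and RNF168 is the highest of its group after H2AFX at 5 μM.

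Among the 8 genes of the strand-exchange group, 6 fell at 5 μM and 1 rose. RAD54L, a translocase that helps strands invade the sister copy (chromosome 1, 46247688 to 46278473), had 12.3 CPM with DMSO, 17.6 at 1 μM and 0.740 at 5 μM, or 720, 1045 and 20 counts. This was the largest fall of any member, 15.9-fold, with a log2 fold change of -3.99 (interval -4.78 to -3.42). In scramble, CDK16-sh1 and CDK16-sh2 RAD54L read 18.8, 20.3 and 20.0 CPM, and neither hairpin interval excluded 0.

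RAD54B, the other translocase of this family, had 10.3, 14.4 and 21.6 CPM over the Reb series, a log2 fold change of 1.07 at 5 μM (interval 0.90 to 1.24). This value is uncertain, since 51.3% of the RAD54B exon bases are shared with FSBP on the same strand. The exons of RAD54L overlap LRRC41 on the other strand over 25.1% of their bases.

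XRCC2, which works in strand exchange, had 22.0, 21.9 and 2.74 CPM with DMSO, 1 μM and 5 μM and fell 7.95-fold (log2 fold change -2.99, interval -3.37 to -2.67). In the knockdown series its 19.7, 8.88 and 10.96 CPM gave -1.14 with CDK16-sh1 and -0.84 with CDK16-sh2. RAD51D, the partner of XRCC2, had 10.0, 11.2 and 3.22 CPM over the Reb series and 13.1, 7.91 and 5.10 CPM over the knockdown series. RAD51D fell at 5 μM (-1.63) and with CDK16-sh2 (-1.35, interval -1.66 to -1.06), and stood at -0.72 with CDK16-sh1.

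RAD51AP1, which stimulates strand exchange and had the highest mean RPKM of this group, had 29.8, 16.98 and 13.6 CPM over the knockdown series. It fell with CDK16-sh2 (-1.13) and read 20.3, 20.9 and 11.4 CPM over the Reb series, -0.82 at 5 μM. The related genes RAD51B, RAD51C and XRCC3 each fell at 5 μM by 1.05 to 1.11 on the log2 scale, and the hairpin values of RAD51B and RAD51C had intervals that included 0. XRCC3 is uncertain, because 76.7% of its exon bases lie opposite KLC1 exons.

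The Fanconi core complex, which attaches ubiquitin to FANCD2 and FANCI, was the most divided group, with 3 of 8 genes down and 2 up at 5 μM and a median of -0.54. FANCG had 32.4, 26.5 and 8.10 CPM over the Reb series (log2 fold change -1.99), and 45.2, 38.2 and 37.1 CPM in scramble, CDK16-sh1 and CDK16-sh2. FANCE, which joins the core to FANCD2 and had the highest mean RPKM of the group, had 30.4, 26.1 and 8.21 CPM (-1.88), and 33.6, 33.4 and 33.7 CPM in the knockdown series. Neither gene reached 2-fold with a hairpin or at 1 μM.

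FANCA, a scaffold subunit, fell by 1.23 at 5 μM, with 23.6% of its exon bases opposite ZNF276. FANCB and FANCF, subunits of the core, rose from 1.78 to 3.92 CPM and from 1.17 to 3.03 CPM, or from 104 to 106 and from 68 to 82 counts, in libraries of different depth. Their log2 fold changes were 1.12 (interval 0.73 to 1.54) and 1.35 (interval 0.90 to 1.86). FANCC fell with CDK16-sh2 alone, from 14.3 to 6.72 CPM (-1.08), and stood at -0.93 at 5 μM. FANCL, the ligase subunit, and FANCM, the translocase that anchors the core on DNA, were inside 2-fold in all 4 treated libraries. They stood at 0.56 and -0.15 with 5 μM, and 19.7% of the FANCL exon bases lie opposite exons of other genes.

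Both substrates of the core fell at 5 μM under TMM, FANCD2 only just. FANCI (chromosome 15, 89243949 to 89317261) had 5744, 5087 and 1082 counts over the Reb series and FANCD2 (chromosome 3, 10026414 to 10101930) had 1295, 974 and 296 counts. Their log2 fold changes were -1.30 (interval -1.40 to -1.21) and -1.02 (interval -1.21 to -0.84). The interval of FANCD2 spans the 2-fold line. With DESeq2 size factors, 27 of the 29 members lower under TMM at 5 μM were still 2-fold lower. In scramble, CDK16-sh1 and CDK16-sh2 FANCI had 75.2, 67.9 and 52.8 CPM and FANCD2 21.0, 21.8 and 12.9 CPM. With CDK16-sh2 they stood at -0.51 and -0.70, inside 2-fold, and with CDK16-sh1 at -0.15 and 0.05.

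Under TMM, junction processing was the only role group apart from the FANCD2-FANCI pair in which every gene fell at 5 μM, 6 of 6. Its median of -2.49 was the lowest of the 8 groups. BLM, the helicase that dissolves double junctions, had 19.1 CPM with DMSO, 17.02 at 1 μM and 2.29 at 5 μM, a fall of 8.20-fold. RMI2, which stabilises the BLM complex, had 6.45, 5.16 and 0.518 CPM, or 376, 306 and 14 counts, a fall of 11.6-fold with a wide interval (log2 -4.52 to -2.87). RMI1, the partner of RMI2, had 7.60, 7.37 and 2.44 CPM and a log2 fold change of -1.62 (interval -2.03 to -1.26), which lies apart from those of BLM and RMI2.

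SLX4, the scaffold of structure-specific nucleases, fell 10.9-fold, from 40.5 CPM with DMSO through 28.4 at 1 μM to 3.66 at 5 μM. The nuclease pair EME1 and MUS81 had 36.3, 32.5 and 9.43 CPM and 33.7, 25.9 and 10.46 CPM, log2 fold changes of -1.94 and -1.68. Their exons overlap genes of the other strand over 16.4% and 14.1% of their bases. At 1 μM the 6 genes stood between -0.51 and -0.04, a median of -0.24. This group was thus below DMSO at the low dose without any gene reaching 2-fold. At 1 μM all genes near the GC content of SLX4 and MUS81 (57.6% and 57.3%) had a median of -0.10. Those near EME1 and RMI2 in GC content had 0.01, those near BLM 0.09 and those near RMI1 0.14. The part of GC content in these values was not tested.

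With the hairpins the junction genes parted. RMI1 fell with CDK16-sh1, from 10.9 CPM in scramble to 4.24 (log2 fold change -1.35), and had 6.41 CPM in CDK16-sh2 (-0.77), whereas RMI2 had 6.57, 12.6 and 6.76 CPM, 0.93 with CDK16-sh1 and 0.04 with CDK16-sh2. BLM had 14.2, 7.46 and 8.07 CPM (-0.92 and -0.81). EME1 read 33.3, 32.6 and 28.7 CPM, MUS81 32.7, 36.7 and 32.8 CPM and SLX4 23.9, 24.3 and 18.0 CPM, with log2 fold changes from -0.40 to 0.17.

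Under TMM, no member other than BRIP1 that fell with 1 hairpin was 2-fold lower with the other, and the direct difference between the hairpin libraries was taken for these members. CDK16-sh2 minus CDK16-sh1 was -1.36 for RBBP8 (interval -1.47 to -1.24), -0.99 for CHEK1 (-1.13 to -0.86), -0.73 for FANCC (-1.01 to -0.47), -0.63 for RAD51D (-0.95 to -0.32) and -0.32 for RAD51AP1 (-0.52 to -0.12). It was 0.89 for ATR (0.69 to 1.11), 0.60 for BARD1 (0.37 to 0.85), 0.59 for RMI1 (0.26 to 0.93), 0.34 for BRCA2 (0.11 to 0.57) and 0.30 for XRCC2 (0.06 to 0.54). Each of these 10 intervals excluded 0 for counting error, which says nothing about the spread between cultures. These members were picked on the same counts, for a 2-fold fall with 1 hairpin only, so this outcome was largely set by the choice. Among members not picked, some intervals also excluded 0, as for NBN (0.74 to 1.01), and others included it, as for EXO1 (-0.10 to 0.17).

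The main test across genes took both treated libraries of an experiment as 1 group against 1 control, so that the difference between hairpins or doses serves as the spread. With edgeR's quasi-likelihood test and Benjamini-Hochberg adjustment over all genes tested, 0 members were called lower and 0 higher in either experiment, where 0.0% of genes were called with knockdown and 0.00639% lower and 0.0703% higher with Reb. At an unadjusted p under 0.05 there was 1 member lower and none higher with knockdown, beside 312 and 70 of the 15295 genes tested, and none with Reb, beside 23 and 205 of 15655. DESeq2 also called 0 members in either experiment, with 1 member (knockdown) and 0 (Reb) at an unadjusted p under 0.05, while it called 0.0256% of all genes lower and 0.0894% higher with Reb.

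When dose was instead fitted as a linear term in log2(dose + 1), edgeR called 15 members lower and 0 higher, where 11.1% and 13.3% of genes were called. The 15 were MDC1, TP53BP1, ATM, EXO1, BRCA1, BRCA2, XRCC2, RAD54L, FANCE, FANCG, BLM, RMI2, EME1, MUS81 and SLX4. Adjusted p-values were 0.000298 for SLX4, 0.00035 for BRCA1, 0.00149 for BRCA2 and 0.00265 for RAD54L. This fit leaves 1 degree of freedom over 3 libraries.

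Other repair and cell-cycle lists at 5 μM are set beside the members and beside all genes tested, of which 27.2% fell. Of 55 other homologous recombination and Fanconi genes tested, 27 fell (49.1%) and 2 rose, with a median of -0.98. UBE2T, the ubiquitin-conjugating enzyme that works with FANCL, fell from 2261 to 141 counts, a log2 fold change of -2.89. CLSPN, the adaptor of CHEK1, fell from 9168 to 606 counts (-2.81). BRE and UIMC1, parts of the BRCA1-A complex, rose by 1.42 and 1.13. Non-homologous end joining, the route that rejoins ends without a template, had 4 of 16 genes down (25%) and none up (median -0.41), and mismatch repair 2 of 7 down (28.6%) and none up (-0.48). The shares down in both lists were near that of all genes.

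Of 35 genes of replication and S phase 20 fell (57.1%) and 1 rose (median -1.13), and of 20 mitosis genes 17 fell (85%) and none rose (-1.99). In bulk cultures a smaller share of cells in S or G2 phase and less RNA per cell cannot be told apart, and the part of the cell cycle in the members' values was not tested. At 1 μM the same lists, in that order, had 1, 0, 0, 0 and 1 genes down and none up, with medians of -0.02, -0.16, 0.20, 0.11 and -0.24.

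**Figure D3:**
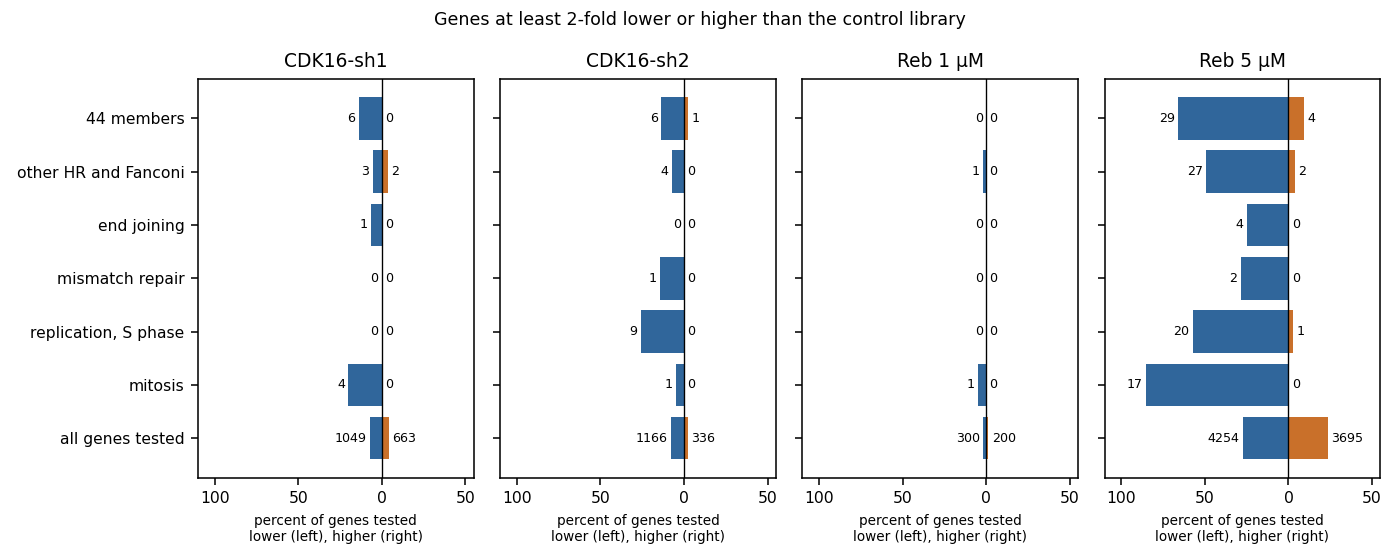
Percent of the genes tested in each list that were at least 2-fold lower (left of 0) or higher (right of 0) than the control, by treated library, with the number of genes at the end of each bar. At 5 μM Reb the members (29 lower, 4 higher) lie with the replication and mitosis lists, while all genes tested are split into 4254 lower and 3695 higher.

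With CDK16-sh1 3 of the 55 other recombination genes fell (5.45%, beside 6.86% of all genes) and 2 rose (3.64%, beside 4.33%), and with CDK16-sh2 4 fell (7.27%, beside 7.62%) and none rose. These shares were near those of all genes. CLSPN went from 4328 counts in scramble to 2432 with CDK16-sh1 (-1.11) and the resection nuclease DNA2 from 377 to 212 (-1.10), while SWI5, a mediator of strand exchange, rose from 198 to 661 counts (1.45) and SLX1A, the nuclease subunit bound by SLX4, from 141 to 366 (1.09). The falls with CDK16-sh2 were led by ETAA1, an activator of ATR (449 to 131 counts, -1.66), CLSPN (4328 to 1404, -1.52) and the nuclease MRE11A (1589 to 675, -1.13). The replication list had 0 of 35 genes down with CDK16-sh1 and 9 with CDK16-sh2 (medians -0.29 and -0.63), and the mitosis list 4 and 1 of 20 (-0.69 and -0.34). End joining had 1 and 0 of 16 down and mismatch repair 0 and 1 of 7, none up.

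The members are longer and poorer in GC than other genes, and the fold changes of all genes followed GC content. Their median GC content was 43.1%, beside 48.2% over 12940 genes with a known value, and their median exon length 6112 bases, beside 4350. When these genes were split into 5 groups of like size by GC content, the median with CDK16-sh1 was -0.43 in the group of lowest GC and 0.42 in that of highest. The 14 members in the lowest group had a median of -0.85. With the linear trends on GC content and length removed, none of the 6 members that fell with CDK16-sh1 was still 2-fold lower, with values of -0.96 for RMI1, -0.91 for BARD1, -0.88 for BRIP1, -0.82 for XRCC2, -0.68 for ATR and -0.60 for BRCA2. Over all genes the count 2-fold lower was then 605 of 12940, where it had been 1049 of 15295.

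At 5 μM the trend had the opposite slope, with a median of 0.41 over all genes in the group of lowest GC and -0.59 in that of highest. The 14 members of the lowest group had a median of -0.61 there. With the trends removed the count of members 2-fold lower was 29, of which 26 were among the 29 under TMM alone. Of the 13202 genes with a known value, 3430 were then 2-fold lower. At 1 μM the median of all genes went from 0.14 in the group of lowest GC to -0.19 in that of highest. The member median at 1 μM was 0.12 under TMM and 0.01 with the trends removed.

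**Figure D4:**
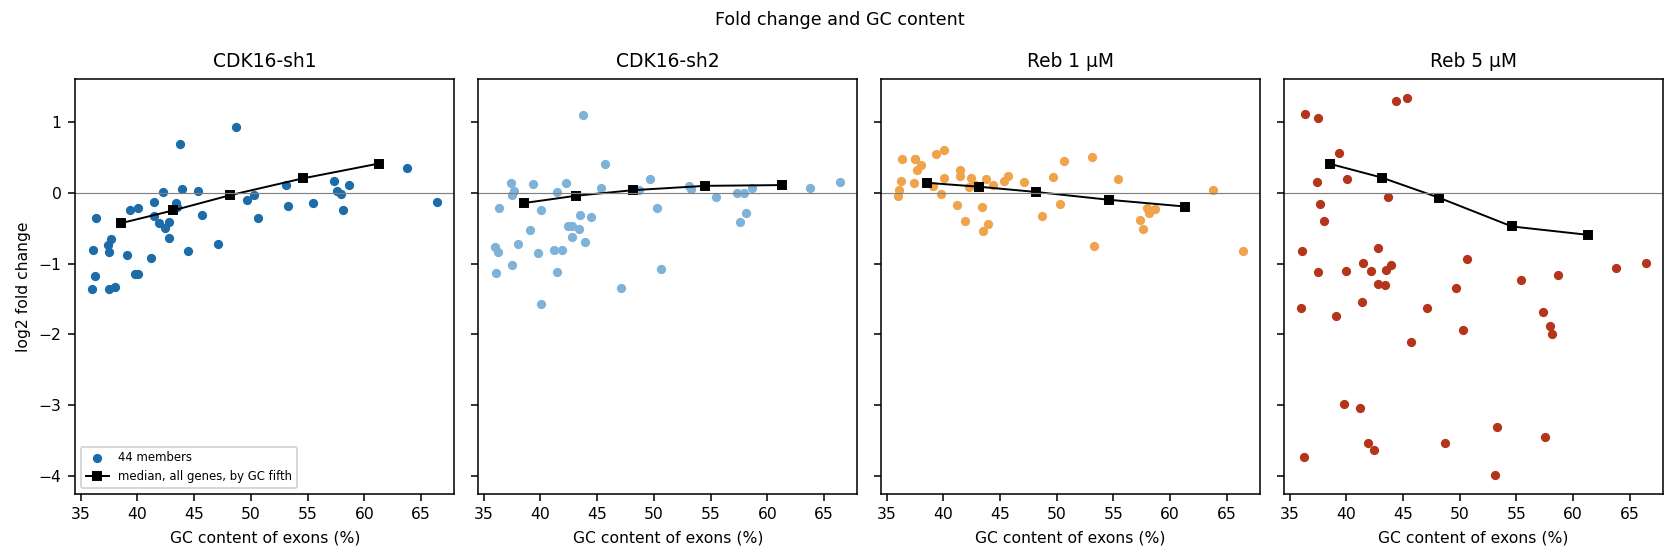
Log2 fold change (y axis) against GC content in percent (x axis) for the 44 members, 1 panel for each treated library. GC content is that of the longest transcript of each gene, though the axis names exons. Black squares give the median of all genes tested in each of 5 groups by GC content. With CDK16-sh1 the squares rise from -0.43 to 0.42 and the members in the group of lowest GC have the lowest median, -0.85, and at 5 μM Reb most members lie below the squares, which go from 0.41 to -0.59.

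The 4 rises at 5 μM depended on the scaling. Under TMM the median of all genes was -0.07 at 5 μM, and when libraries were scaled to their total counts it became -0.75. On that scale 35 members fell and none rose, with 0.67 for FANCF, 0.62 for RNF168, 0.44 for FANCB and 0.38 for RAD54B. All genes tested were then split into 6792 lower and 1835 higher, where under TMM they were split into 4254 and 3695. These 4 members lay above the shifted median on either scale, and whether their messages gained or only kept their number per cell cannot be told apart here. The rise of RNF8 with CDK16-sh2 was likewise inside 2-fold under library totals. That scale split the genes tested with CDK16-sh2 into 1701 lower and 152 higher, where TMM gave 1166 and 336.

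Promoters were read for the members with an entry in the RefSeq table (GRCh38.p14), 40 of 44, because E2F factors are known to drive many S phase genes through sites close to the start. RAD54B, NBN, FANCI and RMI2 had no entry. The window ran from 250 bases before to 50 bases after the annotated start, and the letters TTTCGCGC, TTTGGCGC, TTTCCCGC, TTTGCCGC, TTTCCCGG and TTTGGCGG were searched on both strands as E2F-type motifs. At least 1 was found in 9 of 40 member promoters (22.5%), beside 5.33% of all 35116 promoters and 8.83% of the 9989 promoters of genes tested in the Reb experiment. CCAAT was found in 19 of 40 (47.5%) beside 34.61% of all and 36.98% of those of genes tested, and TTTGAA, the core of the cell cycle homology region, in 5 of 40 (12.5%) beside 15.16% and 9.73%.

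The windows below run from 80 bases before to 30 bases after the start, on the strand of the gene. They show members with an E2F-type motif near the start that fell at 5 μM (EXO1, XRCC2, TOPBP1 and FANCD2), RNF168, which has such a motif and rose, and RAD54L, which fell most and has none in its window. Capitals mark the E2F-type motif on either strand, and in RAD54L the CCAAT motifs.
EXO1, chr1:241848124-241848233, plus strand: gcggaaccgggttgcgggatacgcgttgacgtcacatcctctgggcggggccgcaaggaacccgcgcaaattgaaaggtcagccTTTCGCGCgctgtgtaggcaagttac
XRCC2, chr7:152676112-152676221, minus strand: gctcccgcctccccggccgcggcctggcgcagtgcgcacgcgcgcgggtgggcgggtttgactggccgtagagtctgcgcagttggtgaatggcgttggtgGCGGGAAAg
TOPBP1, chr3:133661912-133662021, minus strand: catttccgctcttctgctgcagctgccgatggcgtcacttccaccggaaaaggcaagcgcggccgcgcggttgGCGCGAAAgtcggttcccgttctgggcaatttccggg
FANCD2, chr3:10026357-10026466, plus strand: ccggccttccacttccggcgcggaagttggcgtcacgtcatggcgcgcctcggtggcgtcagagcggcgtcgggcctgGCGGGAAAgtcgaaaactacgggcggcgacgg
RNF168, chr3:196503739-196503848, minus strand: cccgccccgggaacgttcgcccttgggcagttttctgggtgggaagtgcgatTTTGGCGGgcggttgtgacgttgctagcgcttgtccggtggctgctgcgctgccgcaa
RAD54L, chr1:46247608-46247717, plus strand: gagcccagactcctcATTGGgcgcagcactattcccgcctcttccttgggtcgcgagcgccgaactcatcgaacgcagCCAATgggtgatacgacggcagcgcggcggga

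Members with and without an E2F-type motif fell at 5 μM. Of the 9 with an E2F-type motif 7 fell at 5 μM, with a median of -1.23, and of the 31 without one 20 fell, with a median of -1.16. BRCA1, BRCA2, BLM and SLX4, which fell 8.20-fold or more, had no E2F-type motif in the window. For BRCA1 the window (chromosome 17, 43170278 to 43170577, minus strand) lies wholly upstream of the counted exons, which end at 43170245. The same holds for RMI1, also without an E2F-type motif (chromosome 9, 83980109 to 83980408, plus strand), whose counted exons start at 83980711. Any start of BRCA1 or RMI1 within its counted exons was therefore not read. For both, the absence of a motif holds for this window only. With CDK16-sh1 and CDK16-sh2 2 and 1 of the 9 fell, beside 4 and 5 of the 31. A match in these letters is a description of the sequence and not a binding site.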

How the data were processed

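Stranded mRNA libraries from MDA-MB-231 cells were sequenced on a HiSeq X 10. The authors deposited, per gene symbol, whole-number read counts without normalization, and RPKM calculated from these counts by exon length and library total. Per the labels the tools were Trimmomatic and featureCounts (Subread 1.5.1) on GRCh38. The aligner, the annotation and the strand setting of the counting are not given in the sources used here. Rows were matched to the 44 members by symbol. Each treated library was set against its own control by the log2 ratio of TMM-scaled CPM (edgeR 4.0.16 in R 4.3.3, prior count 2), once genes averaging under 1 CPM were left out. The threshold was 2-fold. The 95% intervals (Clopper-Pearson) treat the counts of a pair of libraries as a share. They cover counting error only, because each condition had 1 library. Reads were taken as independent molecules, which was not checked. The pooled test was edgeR's quasi-likelihood test over all genes (adjusted p-value of at most 0.05 and 2-fold), with DESeq2 1.42.0 as an alternative. Exon overlaps were computed from the exon positions deposited with the counts. GC content was that of the longest GENCODE transcript of each gene, and promoters were taken from RefSeq.

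The members, lists and alternatives were chosen with earlier results of these data known. Values in every library were given for members past 2-fold in at least 1 library, except the 14 past it in 1 library only and by less than 3-fold, and for the member of highest mean RPKM in each role, BRCA1, BRCA2, FANCD2, FANCI, CHEK1 and ATM. Members outside this rule that are described singly, like NBN, PALB2, FANCL and FANCM, and the gene MRE11A at 5 μM, were chosen after their values were seen. Of the other recombination genes, up to 3 falls and 3 rises per library were named where the gene averaged at least 5 CPM. A gene that this rule reaches is not reported here.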

Additional observations from a re-analysis of the deposited data

How the results depend on the processing

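The counts of members past 2-fold and their medians were recomputed with DESeq2 size factors, library totals, deposited RPKM with 0.1 added, no filter, a mean of at least 5 CPM, a prior count of 0.5, and trends on GC content and length removed. No log2 fold change past 2-fold changed its sign under any of these. With GC and length trends removed, members 2-fold lower with CDK16-sh1 went from 6 to 0. Members higher with CDK16-sh2 went from 1 to 0 under library totals and under RPKM, and the median from -0.27 to -0.46 under library totals. At 5 μM the members higher went from 4 to 0 under library totals and RPKM, and to 2 with no filter, with a mean of at least 5 CPM (40 members tested) and with the trends removed. The median at 5 μM was -1.88 under library totals and -1.75 under RPKM. The lower count at 5 μM stayed between 27 and 35. In the pooled Reb test the members called lower were 0, and 15 with dose as a linear term. Library totals moved the median of all genes at 5 μM from -0.07 to -0.75 and with CDK16-sh2 from 0.02 to -0.18. Apart from scaling and the trends' own construction, the cause of these changes was not tested. Leaving out a library leaves 1 against 1 with no residual degrees of freedom, so it gives no test. No paired analysis was possible because each condition has 1 library. Depth limits RMI2, RAD54L and BRCA2 at 5 μM, with 14, 20 and 34 counts.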
